A study of Mus musculus with 8 samples.

Results

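Neural cell adhesion molecules are surface proteins that hold neurons and glia together and to each other. Of the 10987 transcripts in the deposited table of ribosome footprint and RNA abundance, 107 were chosen by gene symbol: cadherins, protocadherins, the L1 family, contactins and contactin-associated proteins, NCAMs, IgLONs, Cadm proteins, neurexins, neuroligins, netrin-G ligands and LRR transmembrane proteins. They carry 106 symbols, since Pcdha11 is listed with 2 transcripts. The letters of the rule also took 6 Lrrc proteins (Lrrc40, Lrrc42, Lrrc45, Lrrc46, Lrrc47 and Lrrc49) that are not adhesion molecules of these families. They are kept in the counts and described apart, and 101 transcripts remain without them. All 107 transcripts were found in Gencode vM21 (GRCm38) under the same symbol.

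The study compared mouse oligodendrocyte progenitor cells (OPCs), the dividing glial cells that become myelinating oligodendrocytes, with oligodendrocytes made from them in culture. OPCs came from epiblast stem cells of strain 129S/SvEv embryos and were grown with bFGF and PDGFA at 20 ng/mL each. Oligodendrocytes were differentiated from OPCs without bFGF or PDGFA, in 40 ng/mL of the thyroid hormone T3, noggin and IGF-1 at 100 ng/mL each, NT3 at 10 ng/mL and cyclic AMP at 10 uM. Cells of both groups were collected after 3 days, and 2 cultures per cell type gave a library of ribosome footprints (fragments of mRNA covered by a ribosome) and a library of size-matched total RNA from the same lysate, 8 libraries in all. Lysates of the dishes of a culture were pooled. No neurons or axons are named among the contents of the dishes, so the axonal partners of these molecules were not supplied.

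Adhesion molecules of these families bind across the gap between 2 membranes, many of them to a copy of themselves and others to a fixed partner, such as neurexins to neuroligins and LRR transmembrane proteins. In the nervous system they are best known from synapses and axon bundles, and in myelin from the paranodal junction, where neurofascin on the glial loops faces contactin and a contactin-associated protein on the axon. The clustered protocadherins are arranged in the alpha, beta and gamma arrays of chromosome 18, from which each neuron draws its own combination.

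Values are FPKM, fragments per kilobase of the transcript (RNA-seq) or of its coding sequence (CDS, footprints) scaled to the number of mapped reads, which can be set side by side between genes within a kind of library. Transcripts that averaged 1 FPKM or more in the 4 libraries of a kind were tested with limma on log2(FPKM + 0.1), and a transcript was called at a Benjamini-Hochberg adjusted p under 0.05 over all tested transcripts. Fold changes are oligodendrocytes over OPCs on that scale, with their standard error (SE), and understate changes of low transcripts. The labels number the 2 cultures of a group, and the paper calls them biological replicates. How they were kept apart is not said, so p-values measure the spread between these cultures, which may be in part technical. The paper states that the oligodendrocytes came from the corresponding OPC replicates. The main test does not use this pairing, and a fit with the replicate number as a block does. An exact two-sided permutation test of 2 against 2 cultures cannot give a p below 0.33. In bulk cultures, fewer cells that express a gene and less RNA per cell cannot be told apart.

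Depth was estimated from the steps in the FPKM values, with a possible factor of 2 or more, at between 77.9 and 241 megabases of aligned sequence in the RNA-seq libraries and between 93.1 and 249.6 megabases in the footprint libraries. The RNA-seq estimates rest on the largest of several possible steps, and the step with the best score gives between 241 and 483 megabases with another order of the libraries. Among the footprint libraries the second oligodendrocyte culture was the shallowest by either estimate, and 31.1% of all transcripts were listed at 0 in it against 14.7% to 20.5% in the other footprint libraries. Between 2 and 20 members were listed at 0 in a library. Between the 2 cultures of a group, the members' FPKM had Spearman correlations from 0.907 to 0.950, a description over 107 transcripts. The oligodendrocyte markers Mag, Cldn11, Ugt8a, Mog, Cnp and Myrf were each called higher in both kinds of library, with Ugt8a at 5.97 and 5.63 FPKM in OPC RNA and 224 and 257 FPKM in oligodendrocyte RNA. Of the OPC markers 5 of 7 were listed, of which Pdgfra, Sox10 and Nkx2-2 were called higher in oligodendrocytes and Olig1 and Ptprz1 were not called. Markers of microglia (2 of 5 listed), endothelial or mural cells (2 of 6) and pluripotent cells (3 of 4) summed to at most 0.678 FPKM in any RNA-seq library, with Epcam and Cdh1 at 0 in all 4.

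More adhesion molecules rose than fell in oligodendrocytes. In RNA-seq, 73 of the 107 members were tested and 30 were called, against 33.2% of all 8346 tested transcripts. Of these, 23 members were higher (13.0% of all tested transcripts) and 7 were lower (20.2% of all), and the median log2 fold change was 0.69 for the members and -0.23 for all. In footprints, 26 of 73 were called (23.6% of all 8342), with 25 higher (12.8% of all) and 1 lower (10.8% of all), and the medians were 1.01 and -0.16. Of the 70 members tested in both kinds of library, 18 were higher in both and Chl1 was lower in both. A further 11 were called in RNA-seq alone and 7 in footprints alone, and none was called in opposite directions. The shares of all transcripts for these joint counts were not taken, so the counts describe the members only. Scaling the libraries by their median ratio moved the median of all transcripts in RNA-seq to -0.05 and the share of calls that were higher from 39.1% to 51.5% of all calls, and gave 29 members higher and 6 lower. Relative to the median of all transcripts, the members' median was 0.92 under both scalings. The counts rest on every culture: without the first or the second OPC culture, 5 members were called in RNA-seq, all higher, and limma called 0 in footprints, where 21 and 24 members had an unadjusted p under 0.05. Without the first oligodendrocyte culture the counts were 21 and 32, and without the second 13 and 8. Cadm4, Cntn1, Ncam2 and Nfasc were called in RNA-seq in all 12 settings. Chl1 was called in the 9 settings in which it was tested. Its RNA was listed at 0 in both oligodendrocyte cultures, so it reached the minimum FPKM through the OPC cultures alone. Other called members also reached it only through the cell type in which they were high. In RNA, Nfasc and Cadm3 were under 1 FPKM in both OPC cultures. Pcdh18, Pcdhgb1 and Pcdhgb4 were under 1 FPKM in both oligodendrocyte cultures. With the replicate number as a block, 34 of 73 members were called in RNA-seq (27 higher), against 3323 of all 8346 transcripts (1250 higher). In footprints 14 of 73 members were called, all higher, against 1735 of all 8342 transcripts (932 higher). In the fits without a culture, calls over all transcripts moved in the same direction as those of the members. The counts of those fits are therefore not read as a result about the members.

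**Figure D1:**
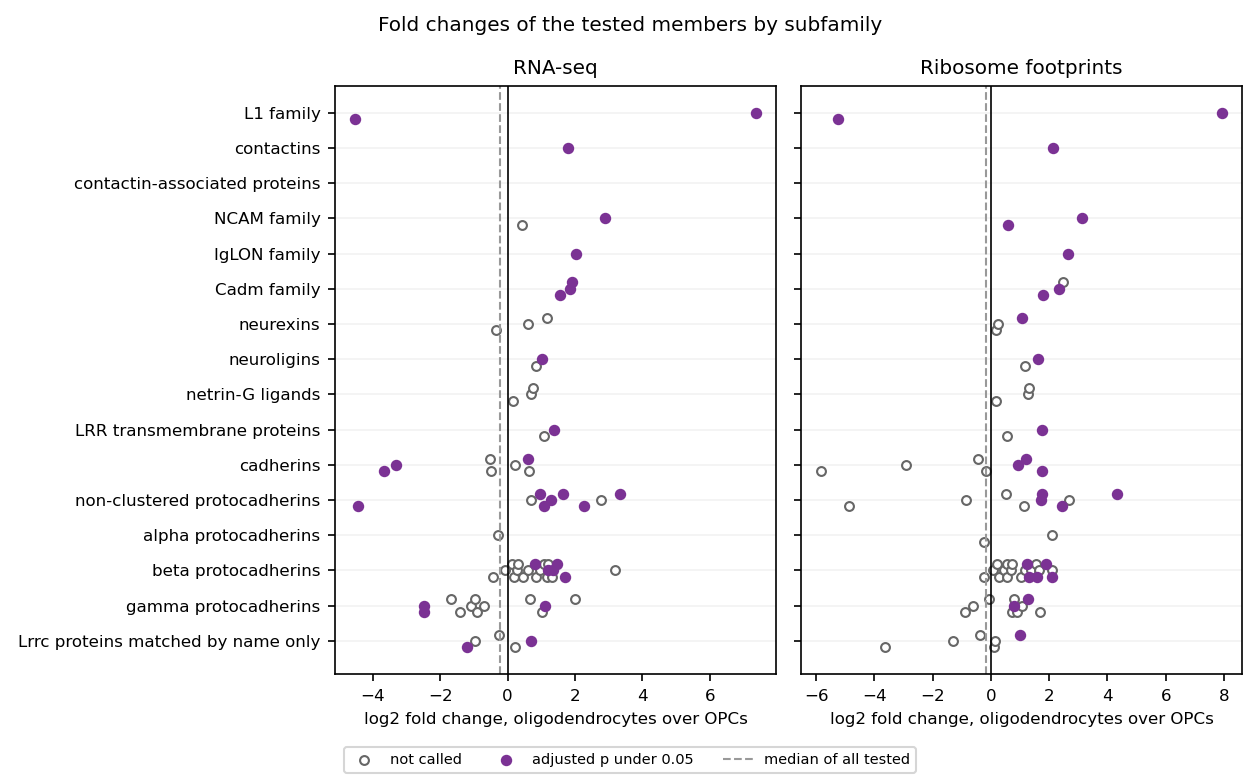
Log2 fold change of each tested member (oligodendrocytes over OPCs, horizontal axis) in RNA-seq (left) and ribosome footprints (right), by subfamily. Filled points have an adjusted p under 0.05 and the dashed line is the median of all tested transcripts, -0.23 in RNA-seq and -0.16 in footprints. Contactins, NCAM, IgLON and Cadm members lie to the right of 0, cadherins to both sides, and gamma protocadherins fall to both sides in RNA-seq.

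The abundance was concentrated in a few transcripts. In OPCs, Pcdhgc3, Lrrc4b, Cntn1, Cadm4 and Ncam1 took 55.4% and 47.8% of the RNA-seq FPKM summed over the 101 adhesion molecules in the first and the second culture. In oligodendrocytes, Cadm4, Cntn1, Pcdhgc3, Lrrc4b and Nfasc took 60.1% and 56.8%. The summed RNA-seq FPKM of the 101 was 1001 and 862 in OPCs and 1971 and 1854 in oligodendrocytes, a 1.97-fold and 2.15-fold difference within the first and the second pair of cultures. Summed footprint FPKM was 1675 and 1723 in OPCs and 4491 and 4532 in oligodendrocytes, 2.68-fold and 2.63-fold within the pairs. The 2 groups did not overlap in either sum.

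Promoter sequence is shown for the members that were called in both kinds of library with the largest changes in each direction, so that the start regions of genes that rose and fell can be read side by side. The windows run from 250 bases before to 50 after the RefSeq start (GRCm38.p6), 5′ to 3′ on the gene's strand: chr14:79771263-79771562 on the minus strand for Pcdh8, chr16:81200447-81200746 on the plus strand for Ncam2, and chr6:103510626-103510925 on the plus strand for Chl1, whose window starts from a site 192 bases before the start of the listed transcript. Capitals mark the SOX core (ACAAAG or its complement CTTTGT) and the letters TATAAA or TTTATA. None is shown for Nfasc, whose nearest RefSeq window lies 34431 bases from the start of the listed transcript.
Pcdh8: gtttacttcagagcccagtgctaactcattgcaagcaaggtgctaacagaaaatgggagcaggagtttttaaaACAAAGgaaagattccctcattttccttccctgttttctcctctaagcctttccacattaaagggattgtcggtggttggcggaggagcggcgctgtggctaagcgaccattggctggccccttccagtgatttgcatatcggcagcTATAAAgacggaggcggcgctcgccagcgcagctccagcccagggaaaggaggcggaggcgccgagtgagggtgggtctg
Ncam2: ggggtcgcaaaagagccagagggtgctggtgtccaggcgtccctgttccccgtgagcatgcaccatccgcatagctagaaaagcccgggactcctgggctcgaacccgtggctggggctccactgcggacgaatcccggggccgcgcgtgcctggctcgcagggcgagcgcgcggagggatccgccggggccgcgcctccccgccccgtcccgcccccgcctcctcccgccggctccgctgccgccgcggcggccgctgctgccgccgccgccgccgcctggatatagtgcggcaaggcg
Chl1: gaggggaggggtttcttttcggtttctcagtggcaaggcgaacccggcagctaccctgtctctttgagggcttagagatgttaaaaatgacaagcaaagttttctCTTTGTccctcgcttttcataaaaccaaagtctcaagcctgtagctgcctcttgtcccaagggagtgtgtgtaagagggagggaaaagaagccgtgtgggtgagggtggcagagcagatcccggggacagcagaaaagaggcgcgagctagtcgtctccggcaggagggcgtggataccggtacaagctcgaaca

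The Ncam2 window held 41 CpG pairs, the Pcdh8 window 14 and the Chl1 window 13, against a median of 7 over 32851 RefSeq promoter windows of the same length. A SOX core was found once in the Pcdh8 window and once in the Chl1 window, and 18.7% of all windows hold it on either strand. The letters TATAAA were found once in the Pcdh8 window, and they or their complement are in 13.6% of all windows. Neither an E-box (CANNTG, in 72.3% of all windows) nor the Myrf core (CTGGCAC or its complement GTGCCAG, in 5.01%) was in any of the 3 windows. These are matches of letters and no evidence of binding.

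The L1 family held the member with the largest rise in footprints, Nfasc, and the only member called lower in footprints, Chl1. Nfasc encodes neurofascin, whose glial form anchors myelin loops at the paranode. Its listed transcript has 30 exons on chr1:132564690-132741757, minus strand. It was at 0.545 and 0.522 FPKM in the RNA of the 2 OPC cultures and at 139 and 77.8 FPKM in oligodendrocytes. In footprints it stood at 1.80 and 1.27 FPKM in OPCs and at 412 and 374 FPKM in oligodendrocytes. The groups were far apart in both kinds, with log2 fold changes of 7.36 (SE 0.35, adjusted p = 0.000334) in RNA and 7.93 (SE 0.25, adjusted p = 0.00279) in footprints. Since only the canonical transcript was quantified, glial and neuronal forms of neurofascin are not separated. Chl1, the close homolog of L1, went the other way. Its RNA was at 2.53 and 1.91 FPKM in OPCs and listed at 0 in both oligodendrocyte cultures. In footprints it was at 6.06 and 5.08 FPKM in OPCs and at 0.122 and 0 in oligodendrocytes. It was called lower in RNA (adjusted p = 0.0204) and in footprints (log2 fold change -5.24, SE 1.04, adjusted p = 0.0364), and the footprint call was lost with the replicate block (adjusted p = 0.085, range over the settings 0.0092 to 0.225). L1cam and Nrcam were not analysed here.

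Contactin-1, a GPI-anchored partner of neurofascin, was among the most abundant members. Cntn1 RNA was at 105 and 90.8 FPKM in OPCs and at 326 and 354 FPKM in oligodendrocytes, and its footprints were at 169 and 151 against 658 and 743 FPKM. It rose by a log2 fold change of 1.80 (SE 0.15, adjusted p = 0.00134) in RNA and 2.13 (SE 0.13, adjusted p = 0.00451) in footprints. Cntn3, Cntn4 and Cntn6 had no more than 2.38 FPKM in any library and were not tested. The contactin-associated proteins Cntnap1, Cntnap2 and Cntnap5b, of which the first is the axonal Caspr of the paranode, were at no more than 0.929 FPKM in any library.

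Of the NCAMs, Ncam2 changed far more than Ncam1. Ncam2 RNA was at 8.96 and 7.56 FPKM in OPCs and at 59.0 and 64.0 FPKM in oligodendrocytes. In footprints it was at 34.4 and 33.7 against 268 and 326 FPKM. The log2 fold changes were 2.89 (SE 0.19, adjusted p = 0.000664) and 3.12 (SE 0.15, adjusted p = 0.00317). Ncam1, the carrier of polysialic acid on progenitors, was more abundant than Ncam2 in OPCs, at 49 and 60.6 FPKM in RNA and 212 and 202 FPKM in footprints. In oligodendrocytes it was at 70.5 and 75.2 FPKM in RNA, which was not called (log2 fold change 0.42, adjusted p = 0.116), and at 313 and 305 FPKM in footprints, which was called (0.58, SE 0.10, adjusted p = 0.0262). Its exons overlap 417 bases of an opposite-strand gene, and no strand option is given for the quantification. Negr1, a GPI-anchored IgLON, was at 1.14 and 2.05 FPKM in OPC RNA and at 7.35 and 5.78 FPKM in oligodendrocyte RNA. Its footprints went from 2.28 and 5.55 to 22.4 and 23.4 FPKM. It was called in RNA (log2 fold change 2.02, SE 0.44, adjusted p = 0.0199) and in footprints (2.65, SE 0.54, adjusted p = 0.0387), the latter not with the replicate block (adjusted p = 0.0504, range 0.0258 to 0.144). The IgLONs Opcml, Ntm and Lsamp were not analysed here.

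The Cadm proteins, also called nectin-like or SynCAM proteins, were led by Cadm4 and Cadm1, which were called higher in both kinds of library. Cadm4, known as the glial nectin-like protein of the internode in peripheral myelin, had the highest mean FPKM of the adhesion molecules in oligodendrocytes. This held in both kinds of library, although Cntn1 was above Cadm4 in the second culture in both kinds. Its RNA was at 108 and 78.9 FPKM in OPCs and at 357 and 341 FPKM in oligodendrocytes, and its footprints were at 166 and 128 against 774 and 712 FPKM. It rose by a log2 fold change of 1.92 (SE 0.19, adjusted p = 0.00212) in RNA and 2.35 (SE 0.17, adjusted p = 0.0062) in footprints. Cadm1, known among other roles from synapse formation, was at 28.4 and 28.9 FPKM in OPC RNA and at 73.3 and 96.5 FPKM in oligodendrocyte RNA. Footprint FPKM of Cadm1 was at 86.6 and 91.4 against 299 and 313 FPKM, with log2 fold changes of 1.55 (SE 0.19, adjusted p = 0.00354) and 1.78 (SE 0.11, adjusted p = 0.00447). Cadm3, which in peripheral nerve sits on the axon and binds Cadm4, was low, at 0.783 and 0.603 FPKM in OPC RNA and 2.48 and 3.10 FPKM in oligodendrocyte RNA. It was called in RNA (log2 fold change 1.87, SE 0.55, adjusted p = 0.0477) but not with the replicate block (adjusted p = 0.0598, range 0.0163 to 0.18), and its footprints were not called (2.47, adjusted p = 0.0585). Cadm2 had at most 0.0791 FPKM in any library.

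**Figure D2:**
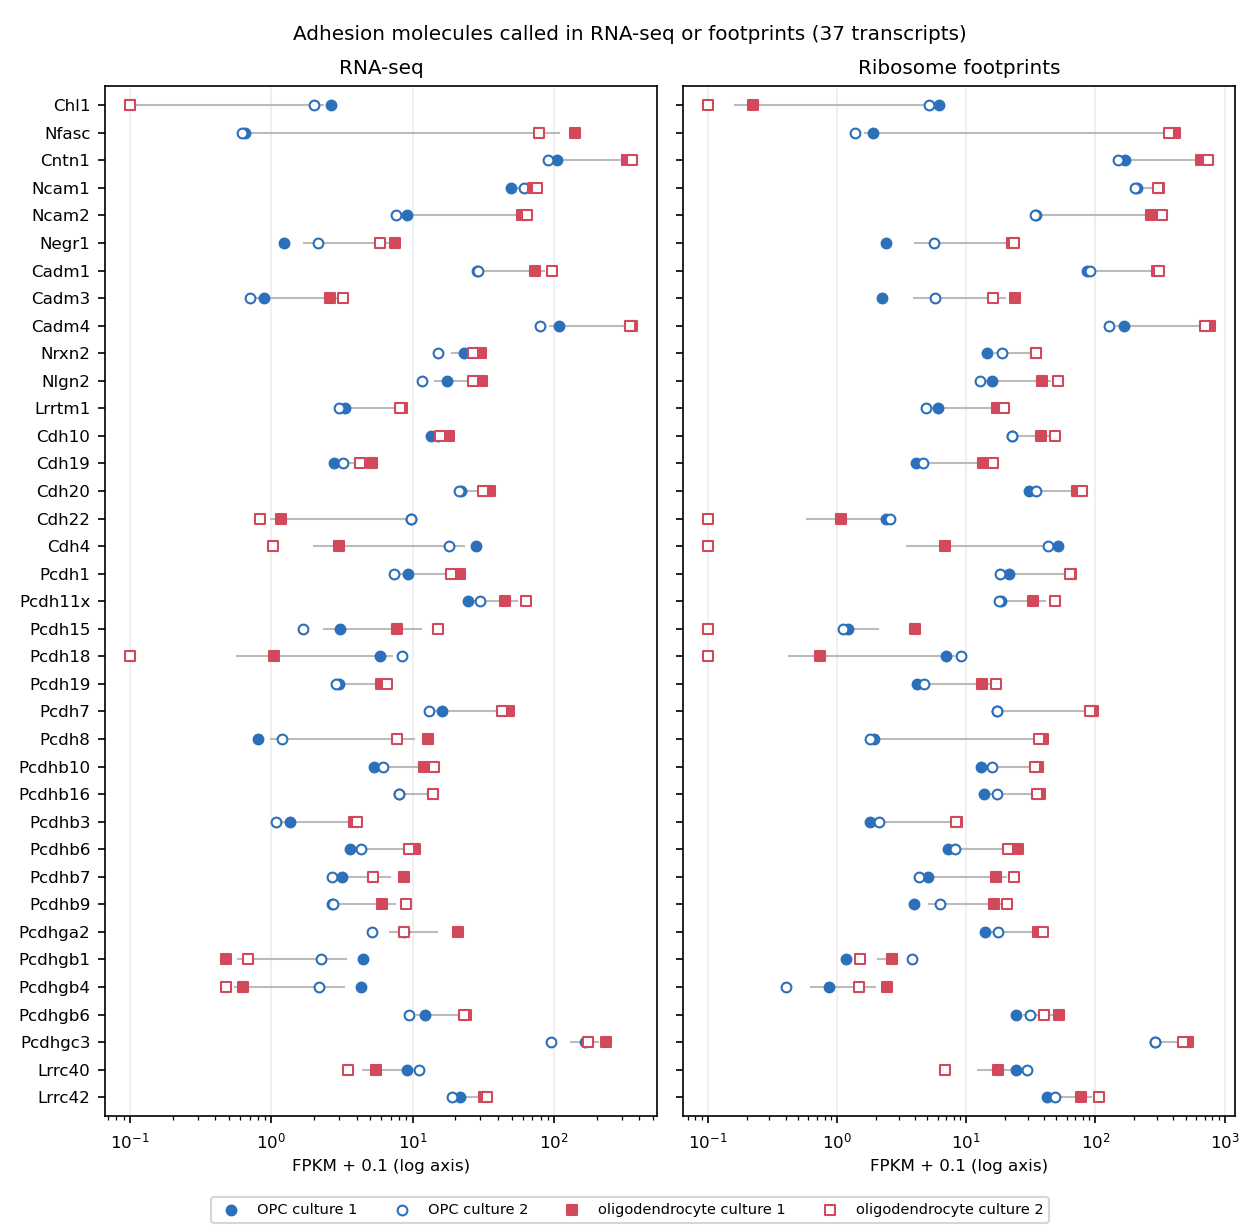
FPKM + 0.1 (log axis) of the 37 members called in RNA-seq (left) or footprints (right), 1 row per transcript in the order of the subfamilies. Circles are the OPC cultures and squares the oligodendrocyte cultures, filled for the first culture and open for the second, and the grey line joins the group means. Nfasc shows the widest gap to the right, and the members called lower in RNA (Chl1, Cdh22, Cdh4, Pcdh18, Pcdhgb1, Pcdhgb4 and Lrrc40) have their squares to the left of the circles in the RNA-seq panel.

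The synaptic partner families showed smaller differences. Neurexins, receptors of the presynaptic side, are given for Nrxn2 and Nrxn3, neither of which was called in RNA. Nrxn2 had RNA at 23.0 and 14.9 FPKM in OPCs, where oligodendrocytes had 30.4 and 26.6 FPKM, and footprints at 14.4 and 18.9 against 34.7 and 34.8 FPKM. Its footprints were called (log2 fold change 1.07, SE 0.23, adjusted p = 0.0426), though not with the replicate block (adjusted p = 0.0704, range 0.035 to 0.191). Nrxn3 was at 1.92 and 1.68 FPKM in OPC RNA and 4.26 and 4.16 FPKM in oligodendrocyte RNA (adjusted p = 0.0646). Both overlap a gene on the opposite strand, Nrxn2 by 207 and Nrxn3 by 439 exon bases.

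Of the ligands of neurexins, Nlgn2 and Lrrtm1 rose in both kinds of library. Nlgn2, the neuroligin of inhibitory synapses, was at 17.3 and 11.4 FPKM in OPC RNA and 30.9 and 26.4 FPKM in oligodendrocyte RNA, and at 15.8 and 12.8 against 38.2 and 50.9 FPKM in footprints. The log2 fold changes were 1.02 (SE 0.26, adjusted p = 0.0306) and 1.63 (SE 0.25, adjusted p = 0.0212). Nlgn1, of excitatory synapses, was at 3.60 and 3.62 against 7.65 and 5.68 FPKM in RNA and was not called (adjusted p = 0.0947). Lrrtm1 was at 3.23 and 2.91 FPKM in OPC RNA and 8.27 and 7.97 FPKM in oligodendrocyte RNA, and its footprints were at 5.95 and 4.81 against 17.3 and 19.6 FPKM. It was called in RNA (log2 fold change 1.38, SE 0.30, adjusted p = 0.0197) and in footprints (1.77, SE 0.33, adjusted p = 0.0314), the latter not with the replicate block (adjusted p = 0.0711, range 0.0275 to 0.201). Lrrtm3, at 2.19 to 7.08 FPKM in RNA, was not called, and Lrrtm4 had at most 2.01 FPKM in any library.

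The netrin-G ligands were not called in either kind of library. Lrrc4b was abundant, at 128 and 86.3 FPKM in OPC RNA and 130 and 108 FPKM in oligodendrocyte RNA, and the 2 groups overlapped. Its footprints were at 70.2 and 79.1 against 80.1 and 88.9 FPKM (log2 fold change 0.18, SE 0.14, adjusted p = 0.393). Lrrc4 (4.61 to 8.11 FPKM in RNA) and Lrrc4c (8.49 to 19.6 FPKM in RNA) had log2 fold changes of 0.69 and 0.76. With the replicate block Lrrc4c was called in RNA (adjusted p = 0.0383, range 0.0383 to 0.338).

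Classical and type II cadherins, the calcium-dependent homophilic adhesion molecules, split in both directions. Cdh4, R-cadherin, was at 27.7 and 17.9 FPKM in OPC RNA and 2.89 and 0.925 FPKM in oligodendrocyte RNA, a log2 fold change of -3.67 (SE 0.56, adjusted p = 0.00664). Its footprints were at 51.3 and 42.7 FPKM in OPCs, 6.72 FPKM in the first oligodendrocyte culture and listed at 0 in the second, and were not called (adjusted p = 0.136). Cdh22 fell from 9.53 and 9.67 FPKM to 1.06 and 0.735 FPKM in RNA (log2 fold change -3.30, SE 0.40, adjusted p = 0.00344). Its footprints, at 2.31 and 2.48 against 0.971 and 0 FPKM, were not called (adjusted p = 0.244).

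In contrast, Cdh20, Cdh19 and Cdh10 rose in footprints. Cdh20 was at 22 and 21.1 FPKM in OPC RNA and 34.9 and 31.3 FPKM in oligodendrocyte RNA, and at 30.4 and 34.5 against 71.5 and 79.2 FPKM in footprints. It was called in both, with log2 fold changes of 0.62 (SE 0.17, adjusted p = 0.0427) and 1.21 (SE 0.16, adjusted p = 0.0145). Cdh19, a cadherin known from the Schwann cell lineage, had RNA at 2.69 and 3.12 against 5.00 and 4.15 FPKM, which was not called (adjusted p = 0.215). Its footprints rose from 4.02 and 4.51 to 13.4 and 16.1 FPKM (log2 fold change 1.77, SE 0.36, adjusted p = 0.0393). Cdh10 RNA did not pass the test (13.4 and 15.0 against 18 and 15.5 FPKM), while its footprints were at 22.7 and 22.5 against 37.7 and 48.8 FPKM (0.92, SE 0.21, adjusted p = 0.0468). With the replicate block the footprint calls of Cdh19 (adjusted p = 0.0843, range 0.0263 to 0.227) and Cdh10 (adjusted p = 0.0732, range 0.0275 to 0.243) were lost. Cdh2, N-cadherin, had the highest footprint level of the cadherins in every library, at 134 and 173 against 126 and 142 FPKM. It was at 39.2 and 48.6 against 36.2 and 26.6 FPKM in RNA and was not called in either kind, and neither was Cdh13, the GPI-anchored T-cadherin (19.5 and 18.5 against 16.3 and 10.5 FPKM in RNA). Cdh1 and Cdh8 had at most 0.588 FPKM in any library.

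Of the 10 non-clustered protocadherins 9 were tested. In RNA 6 were called higher and 1 lower, against 13.0% higher and 20.2% lower over all tested transcripts, and in footprints 4 were called higher and none lower, against 12.8% and 10.8%. Pcdh8, an activity-regulated protocadherin of synapses, rose most. It was at 0.708 and 1.08 FPKM in OPC RNA and 12.6 and 7.58 FPKM in oligodendrocyte RNA, and at 1.83 and 1.70 against 39.0 and 36.4 FPKM in footprints, with log2 fold changes of 3.34 (SE 0.46, adjusted p = 0.0049) and 4.34 (SE 0.34, adjusted p = 0.00702). Pcdh7 was at 15.9 and 13.0 against 48.0 and 42.8 FPKM in RNA and 17.2 and 17.3 against 95.3 and 90.4 FPKM in footprints. It rose by 1.65 (SE 0.20, adjusted p = 0.00326) and 2.42 (SE 0.15, adjusted p = 0.00459) on the log2 scale. Both carry exon overlap with a gene on the other strand, 436 bases for Pcdh8 and 2182 bases for Pcdh7, so reads of the pair cannot be told apart where strand was not used.

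Pcdh1 and Pcdh19 were also called in both kinds of library. Pcdh1 was at 9.13 and 7.29 against 21.6 and 18.6 FPKM in RNA (log2 fold change 1.29, SE 0.24, adjusted p = 0.0116) and 21.2 and 18.1 against 65.2 and 63.7 FPKM in footprints (1.71, SE 0.17, adjusted p = 0.00943). Pcdh19, the gene of an X-linked epilepsy, was at 2.92 and 2.74 against 5.87 and 6.42 FPKM in RNA (1.09, SE 0.32, adjusted p = 0.0488) and 4.04 and 4.65 against 13.2 and 16.8 FPKM in footprints (1.76, SE 0.37, adjusted p = 0.0415). Neither Pcdh19 call held with the replicate block (adjusted p = 0.0564 in RNA, range 0.0289 to 0.223, and 0.0838 in footprints, range 0.0265 to 0.233).

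Pcdh15, a component of the tip links of hair cells, and Pcdh11x were called in RNA alone. Pcdh15 was at 2.95 and 1.57 against 7.60 and 14.9 FPKM in RNA (log2 fold change 2.25, SE 0.49, adjusted p = 0.019). Its footprints were at 1.12 and 1.00 FPKM in OPCs, 3.93 FPKM in the first oligodendrocyte culture and listed at 0 in the second. Pcdh11x was at 24.4 and 29.9 against 44.6 and 63.4 FPKM in RNA (0.98, SE 0.23, adjusted p = 0.0251), with footprints at 18.7 and 17.9 against 32.7 and 48.4 FPKM that were not called (adjusted p = 0.0514). Pcdh18 was the protocadherin that fell outside the clusters, from 5.79 and 8.28 FPKM to 0.944 and 0 FPKM in RNA (-4.44, SE 1.14, adjusted p = 0.0316). Its footprints, at 6.87 and 9.07 against 0.643 and 0 FPKM, were not called (adjusted p = 0.0676).

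Pcdh9 differed more between replicate cultures than between cell types. In RNA it was listed at 0 in the first OPC culture and at 5.93 FPKM in the second, and at 2.07 and 12.7 FPKM in the oligodendrocyte cultures. Footprints gave the same order, with 0 and 5.55 FPKM for OPCs against 2.08 and 10.6 FPKM for oligodendrocytes. It was not called (adjusted p = 0.312 in RNA), but it was with the replicate block (adjusted p = 0.0326, range 0.0326 to 0.927). Pcdh10 (1.33 to 2.71 FPKM in RNA) was not called, and Pcdh20 had at most 1.06 FPKM in any library.

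At the lower depth estimate, 8 zeros of 7 members stood against a value in the other culture of the group that would amount to at least 20 reads of 30 bases. They were Pcdhb17 RNA, Pcdh9 RNA and footprints and Pcdhga12 footprints in the first OPC culture, Pcdhac1 RNA in the second, and the footprints of Pcdh15, Cdh4 and Cntn3 in the second oligodendrocyte culture. For Pcdhb17 RNA and Pcdh9 footprints this came to 190 and 171 reads, and for Cdh4 footprints to 57.1 reads. An exact 0 in FPKM can be a failed estimate, so these members are said to be listed at 0 only.

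The beta protocadherins, 21 single-exon genes in a row on chromosome 18 with no exon shared except a small overlap of Pcdhb21 and Pcdhb22, had mostly positive, modest fold changes. Sharing was judged by position alone. Reads that match more than 1 of these genes were not examined. Of 20 tested in RNA, 5 were called higher and none lower, where 13.0% and 20.2% of all tested transcripts were called, and 18 had a fold change above 0. In 15 of the 20 both oligodendrocyte cultures lay above both OPC cultures, and in 1 below, against 27.6% and 44.2% of all tested transcripts. In footprints 5 of 20 were called higher and none lower (12.8% and 10.8% of all tested), 19 had a fold change above 0, and 15 and 1 did not overlap, against 31.8% and 37.9% of all. The median log2 fold change was 0.90 in RNA and 1.10 in footprints, against -0.23 and -0.16 for all transcripts. Summed FPKM was 57.4 and 68.3 in OPCs and 109 and 118 in oligodendrocytes in RNA, and 107 and 133 against 257 and 275 in footprints.

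**Figure D3:**
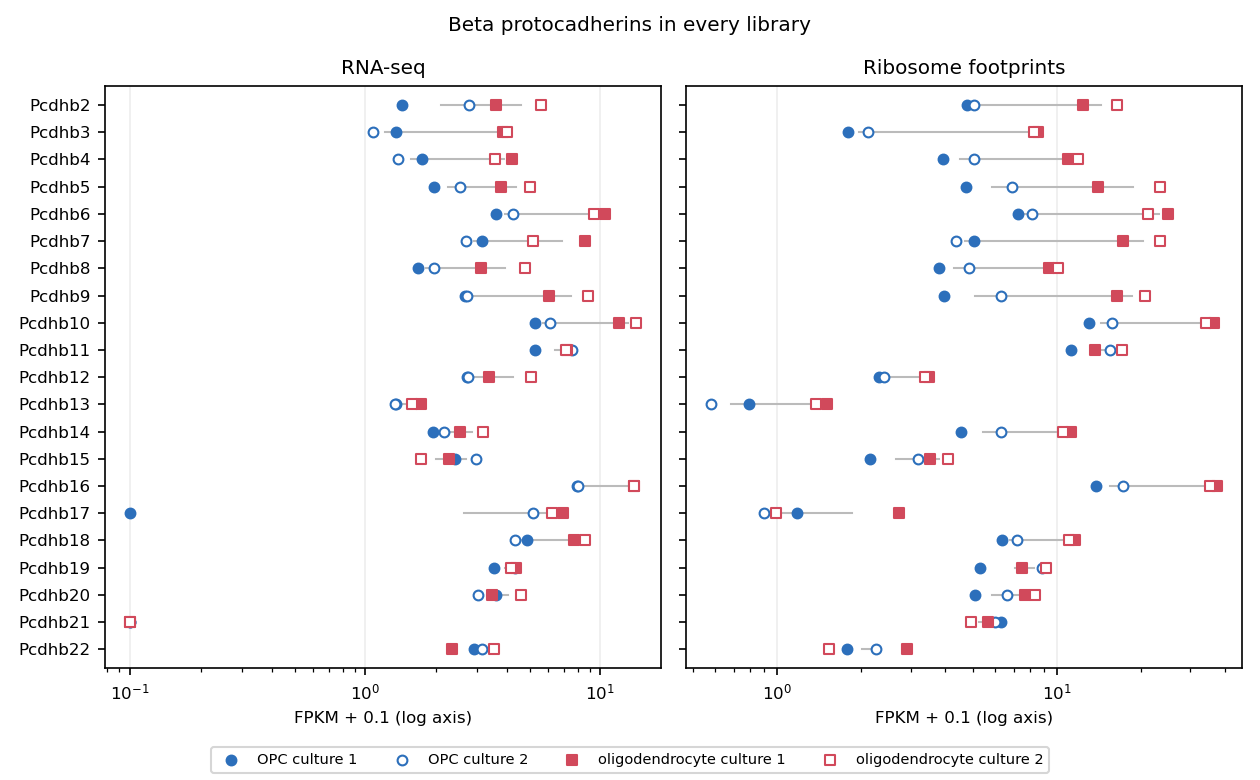
FPKM + 0.1 (log axis) of the 21 beta protocadherins in RNA-seq (left) and footprints (right), in order of their number. Circles are OPC cultures and squares oligodendrocyte cultures, filled for the first and open for the second, and the grey line joins the group means. For most genes both squares lie to the right of both circles, while Pcdhb21 is listed at 0 in all 4 RNA-seq libraries.

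Pcdhb6, Pcdhb9, Pcdhb10 and Pcdhb16 were called in both kinds of library. Pcdhb6 was at 3.49 and 4.17 against 10.3 and 9.27 FPKM in RNA (log2 fold change 1.34, SE 0.29, adjusted p = 0.0187) and 7.18 and 8.03 against 24.9 and 21.1 FPKM in footprints (1.58, SE 0.28, adjusted p = 0.0272). Pcdhb9 was at 2.56 and 2.61 against 5.96 and 8.79 FPKM in RNA (1.45, SE 0.36, adjusted p = 0.0275) and 3.84 and 6.19 against 16.3 and 20.5 FPKM in footprints (1.88, SE 0.41, adjusted p = 0.0442). Pcdhb10 was at 5.17 and 6.03 against 11.9 and 14 FPKM in RNA (1.20, SE 0.26, adjusted p = 0.0188) and 12.9 and 15.6 against 36.2 and 33.9 FPKM in footprints (1.3, SE 0.22, adjusted p = 0.0248). In each of these the oligodendrocyte cultures lay above the OPC cultures, a description of genes already picked by their calls. Pcdhb16, the most abundant in OPC RNA, was at 7.89 and 7.93 against 13.9 and 13.9 FPKM (0.80, SE 0.22, adjusted p = 0.0394) and at 13.6 and 17.1 against 37.1 and 35.1 FPKM in footprints (1.23, SE 0.22, adjusted p = 0.0281). All 4 footprint calls were lost with the replicate block, at adjusted p values of 0.0622, 0.0632, 0.0511 and 0.0547 in the order given, with ranges over the settings of 0.0219 to 0.181, 0.0359 to 0.218, 0.0199 to 0.159 and 0.0229 to 0.164.

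Pcdhb3 was called in RNA alone (1.25 and 0.977 against 3.76 and 3.92 FPKM, log2 fold change 1.71, SE 0.45, adjusted p = 0.0353). Pcdhb7 was called in footprints alone (4.95 and 4.25 against 17.1 and 23.3 FPKM, 2.09, SE 0.36, adjusted p = 0.0255). With the replicate block Pcdhb7 was called in RNA (adjusted p = 0.0418, range 0.0345 to 0.282) and no longer in footprints (adjusted p = 0.057, range 0.02 to 0.188). Not called in either kind were Pcdhb2, Pcdhb4, Pcdhb5, Pcdhb8, Pcdhb11, Pcdhb12, Pcdhb13, Pcdhb14, Pcdhb15, Pcdhb17, Pcdhb18, Pcdhb19, Pcdhb20, Pcdhb21 and Pcdhb22. Their largest footprint fold change was 1.65 on the log2 scale for Pcdhb5 (4.65 and 6.83 against 13.9 and 23.2 FPKM, adjusted p = 0.069). Pcdhb11 was as abundant as the called genes and hardly moved, at 5.15 and 7.48 against 7.08 and 7.06 FPKM in RNA. Pcdhb21 had footprints at 6.21 and 5.90 against 5.55 and 4.82 FPKM but was listed at 0 in the RNA of all 4 cultures, and Pcdhb12 overlaps an opposite-strand gene by 1927 bases.

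The gamma protocadherins were dominated by Pcdhgc3. Its RNA was at 165 and 95.2 FPKM in OPCs and at 233 and 173 FPKM in oligodendrocytes, which was not called (log2 fold change 0.68, SE 0.30, adjusted p = 0.134). Its footprints were at 289 and 290 against 519 and 479 FPKM, which was called (0.79, SE 0.10, adjusted p = 0.0156). With the replicate block its RNA was called too (adjusted p = 0.0114, range 0.0114 to 0.501). Each gamma transcript shares between 41.7% and 45.5% of its exon bases, and between 13.1% and 13.6% of its CDS, with other listed transcripts, because all of them end in the same constant exons. How reads of these exons were divided is set by the quantification, so the levels of single gamma transcripts are uncertain in RNA above all. Pcdhgc3 also overlaps 1513 bases of an opposite-strand gene.

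Single gamma transcripts moved in both directions in RNA. Of 12 tested, 1 was called higher and 2 lower, where 13.0% and 20.2% of all tested transcripts were called. A fold change above 0 was seen in 4, and the median log2 fold change was -0.93. Both oligodendrocyte cultures lay above both OPC cultures in 4 and below in 8, against 27.6% and 44.2% of all. In footprints 2 of 10 were called higher and none lower (12.8% and 10.8% of all tested). There 7 had a fold change above 0, and the median was 0.79. In RNA Pcdhgb6 rose from 12.0 and 9.32 to 23.5 and 22.8 FPKM (log2 fold change 1.12, SE 0.22, adjusted p = 0.0145). Pcdhgb1 was at 4.37 and 2.16 against 0.38 and 0.579 FPKM (-2.48, SE 0.65, adjusted p = 0.0343), and Pcdhgb4 at 4.23 and 2.09 against 0.53 and 0.38 FPKM (-2.48, SE 0.66, adjusted p = 0.0344). Neither passed the test in footprints, where Pcdhgb1 was at 1.08 and 3.67 against 2.55 and 1.39 FPKM and Pcdhgb4 at 0.764 and 0.303 against 2.36 and 1.37 FPKM. Pcdhga2 was called in footprints alone (13.8 and 17.6 against 36.1 and 39.5 FPKM, 1.27, SE 0.22, adjusted p = 0.0275), and with the replicate block in RNA as well (adjusted p = 0.0275, range 0.0275 to 0.553). Pcdhgb5 was called in RNA only with the replicate block (adjusted p = 0.0103, range 0.0103 to 0.405), with 0.828 and 2.59 against 3.43 and 11.2 FPKM.

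None of the remaining gamma transcripts was called. Of these Pcdhgb7 had the highest levels, at 6.49 and 4.1 against 3.65 and 2.67 FPKM in RNA and at 15.1 and 17.5 against 11.9 and 9.51 FPKM in footprints. Pcdhga3, Pcdhga4, Pcdhgb2, Pcdhgb7, Pcdhgc4 and Pcdhgc5 were tested in at least 1 kind and not called, and Pcdhga5, Pcdhga6, Pcdhga7, Pcdhga8, Pcdhga9, Pcdhga10, Pcdhga11 and Pcdhga12 stayed under the minimum in both kinds. The 2 OPC cultures disagreed on several of them in footprints: Pcdhga5, Pcdhga6, Pcdhga7, Pcdhga11, Pcdhga12 and Pcdhgc5 were at 0 to 0.233 FPKM in the first culture and at 2.52 to 2.80 FPKM in the second. Summed over all 20 gamma transcripts, which depends less on how the shared exons were divided among them, RNA FPKM was 215 and 143 in OPCs and 290.0 and 226 in oligodendrocytes, and footprint FPKM was 350.1 and 384 against 638 and 582.

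Alpha protocadherins were nearly silent apart from Pcdhac2, the last variable exon of the array. Pcdhac2 was at 6.17 and 4.56 FPKM in OPC RNA and 4.12 and 4.60 FPKM in oligodendrocyte RNA, and was not called (log2 fold change -0.28, adjusted p = 0.543). Pcdha12 was tested in footprints (0.621 and 0.287 against 3.21 and 1.42 FPKM) and not called. Pcdha1, Pcdha2, Pcdha3, Pcdha4, Pcdha5, Pcdha6, Pcdha7, Pcdha8, Pcdha9, both Pcdha11 transcripts and Pcdhac1 had at most 1.56 FPKM in any library. The alpha transcripts share between 48.6% and 98.3% of their exon bases.

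The 6 Lrrc proteins caught by name were mixed. Lrrc42 was called higher in both kinds (21.4 and 18.9 against 31.6 and 33.5 FPKM in RNA, log2 fold change 0.69, adjusted p = 0.0324, and 1.01, adjusted p = 0.0419, in footprints). Lrrc40 was called lower in RNA (9.03 and 11 against 5.38 and 3.36 FPKM, -1.21, SE 0.34, adjusted p = 0.0413) and not in footprints. Lrrc45, Lrrc46, Lrrc47 and Lrrc49 were not called. Without these 6, the calls were 22 higher and 6 lower of 68 in RNA and 24 higher and 1 lower of 67 in footprints.

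Whether ribosome occupancy changed beyond RNA abundance was asked with the change in ribosome density (RD, footprint FPKM over RNA FPKM), fitted over all 8 libraries as a difference between the fold change in footprints and that in RNA. This fit treats the 8 libraries as independent, although the footprint and RNA libraries of a culture came from the same lysate. With limma, none of the 70 members tested was called, against 0.0124% of all 8056 transcripts, which is 1 transcript. The lowest adjusted p of a member was 0.806. At an unadjusted p under 0.05 stood 5 members (7.14%) and 387 of all transcripts (4.80%). The median change was 0.28 on the log2 scale for the members and 0.10 for all, and 54 of 70 members (77.1%) had a change above 0, against 57.7% of all. For the 18 members called higher in both kinds the change lay between 0.0994 and 1.00. These members were picked by their values in the same libraries, so the range is a description and no separate result. With each culture as a block, which uses the shared lysate, none of the 8056 transcripts was called. Without the first oligodendrocyte culture, Cdh4 was called lower in RD; its footprints are at 0 in the remaining culture.

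Within each culture, the members' RD lay close to that of other transcripts. Median RD of the members was 1.57 and 1.67 in the OPC cultures, where that of all transcripts was 1.72 and 1.77. In the oligodendrocyte cultures it was 2.21 and 2.41, against 2.02 and 1.95 for all. Members were thus below the median of all in both OPC cultures and above it in both oligodendrocyte cultures, inside the quartiles of all transcripts each time. Ncam1 stayed high in every culture, at 4.32 and 3.33 in OPCs and 4.44 and 4.06 in oligodendrocytes. Lrrc4b stayed low, at 0.550 and 0.917 against 0.617 and 0.823, so its high RNA level came with fewer footprints than that of Cntn1, whose RD was 1.62 and 1.66 against 2.02 and 2.1.

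**Figure D4:**
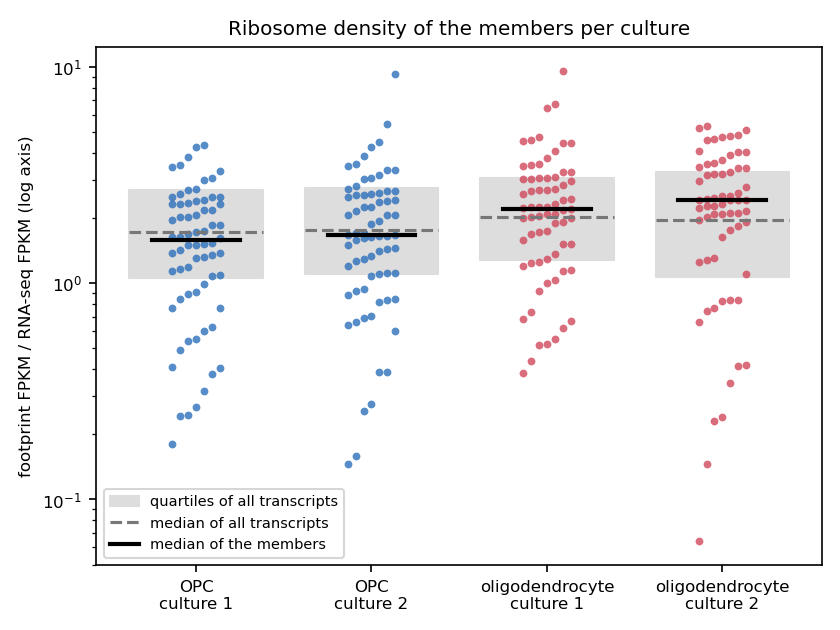
Ribosome density (footprint FPKM over RNA-seq FPKM, log axis) of the members above 0 in both libraries, per culture. Points are transcripts, the black line is the members' median, and the grey band and dashed line are the quartiles and the median of all transcripts. The members' median is below that of all in the OPC cultures and above it in the oligodendrocyte cultures, within the band in all 4.

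**Figure D5:**
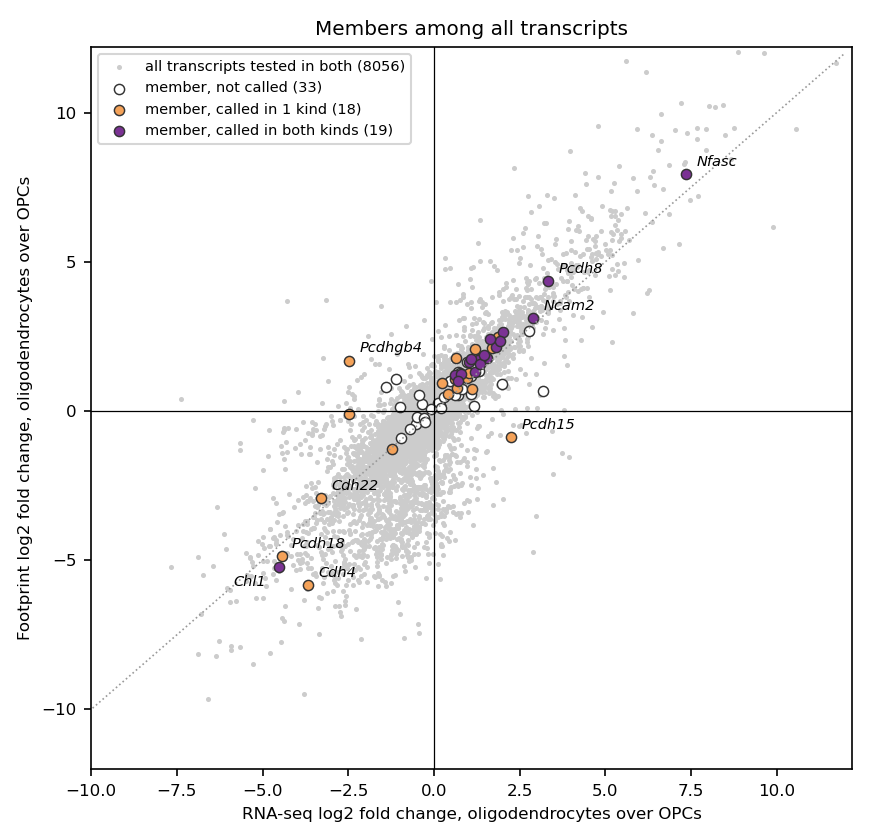
Log2 fold change in footprints (vertical axis) against RNA-seq (horizontal axis), oligodendrocytes over OPCs, with 8056 transcripts tested in both kinds in grey and 70 members coloured by their calls. The dotted line marks equal change. The members called in both kinds lie near it, while Pcdhgb4 and Pcdh15 lie far from it.

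Intracellular partners of these molecules were read from lists. The counts stand beside 13.0% called higher and 20.2% called lower of all tested transcripts in RNA. In footprints these shares were 12.8% and 10.8%. Of the catenins, which tie cadherins to actin, 3 of 7 were listed. Ctnna2, the alpha-catenin of neurons, was called higher in RNA (4.18 and 6.37 against 21.6 and 17.3 FPKM, log2 fold change 1.88, adjusted p = 0.00747) and in footprints, while Ctnnb1 (316 and 347 against 335 and 284 FPKM) and Jup were not called. Of the spectrin, ankyrin and band 4.1 scaffolds that hold such molecules to the membrane skeleton, 7 of 11 were listed and 6 tested. Epb41 (10.8 and 9.51 against 33 and 34.9 FPKM, 1.73, adjusted p = 0.00276) and Sptbn1 (34.5 and 39.8 against 89.2 and 77.9 FPKM, 1.17, adjusted p = 0.00568) were called higher in both kinds, and Epb41l5 lower in RNA (7.36 and 6.08 against 1.12 and 0 FPKM, adjusted p = 0.0396). Of the synaptic PDZ scaffolds 11 of 18 were listed and 10 tested, with Apba2 (2.15, adjusted p = 0.00453), Dlg1 (1.71, adjusted p = 0.00985) and Cask (1.17, adjusted p = 0.0163) higher in RNA and in footprints and Magi1 lower in RNA (-1.12, adjusted p = 0.0212).

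Other adhesion molecules of myelin were listed for 13 of 15 genes and tested for 12, of which 10 were called higher and Pmp22 lower in both kinds. Of all tested transcripts, 13.0% were called higher and 20.2% lower in RNA, and 12.8% and 10.8% in footprints. Mag, Mog and Cldn11 of this list are also among the oligodendrocyte markers. The largest changes in RNA were those of Mag (0 and 0 against 371 and 317 FPKM), Mog (0 and 0 against 39.6 and 21.7 FPKM), Cldn11 (0.518 and 1.88 against 169 and 95.9 FPKM), Tspan2 (1.08 and 0.892 against 94.4 and 64.9 FPKM) and Gjb1 (0.392 and 0 against 6.62 and 6.17 FPKM). None of the 4 tested nectins and JAMs, the relatives of the Cadm proteins at other cell contacts, was called in either kind. With 4 genes this is too few to read against the shares of all transcripts. Of the sheddases that cut adhesion molecules from the surface, Bace1 was called higher in both kinds (10.9 and 8.62 against 62.3 and 41.9 FPKM in RNA, 2.39, adjusted p = 0.00265) and Adam10 lower in RNA (63.1 and 59.8 against 40.2 and 34.4 FPKM, -0.72, adjusted p = 0.0228). The polysialyltransferases that modify Ncam1, St8sia2 and St8sia4, had at most 0.893 FPKM in RNA.

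Markers of other cell types moved in part with the members. Of the neuron markers 10 of 12 were listed, and their summed RNA FPKM was 140.0 and 126 in OPCs and 193 and 217 in oligodendrocytes. Tubb3 and Dcx were called higher, and the defining markers Rbfox3, Snap25 and Syt1 lay between 0.67 and 3.19 FPKM in every RNA-seq library and were not called. Of the astrocyte markers 6 of 8 were listed, with sums of 380 and 364 in OPCs and 1051 and 934 in oligodendrocytes, of which S100b, which oligodendrocytes also express, made up 675 and 633. S100b, Slc1a2 and Gfap were called higher in RNA and Slc1a3 lower. Of the Schwann cell markers, Pmp22 fell in both kinds of library. The part of other cells in the changes of the adhesion molecules was not tested.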

How the data were processed

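Ribosome footprints and size-matched total RNA were sequenced from 2 OPC and 2 oligodendrocyte cultures, and the labels gave the cell type and kind of each library. The authors deposited FPKM values, made with HISAT2 2.1.0 on GRCm38 and StringTie 1.3.5 for canonical coding transcripts of Gencode vM9, over the whole transcript for RNA-seq and over the CDS for footprints. No strand option is given for the quantification. All 8 columns were used, as deposited.

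Transcripts that averaged 1 FPKM or more in the libraries of a fit were tested with limma 3.58.1 in R 4.3.3 (eBayes with a trend) on log2(FPKM + 0.1), with RNA-seq and footprints apart and RD as the interaction over 8 libraries. P-values are two-sided, adjusted by the Benjamini-Hochberg method over all tested transcripts, with a threshold of 0.05. Same-numbered cultures were treated as pairs: their labels share the number, and the methods state that oligodendrocytes were made from the matching OPC replicates. Deviations of same-numbered libraries from their group means correlated at 0.108 in RNA-seq and 0.0860 in footprints, over only 2 pairs, and the block is an alternative. For RD the block was the culture instead of the replicate number.

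Depth was taken from the steps in FPKM times length of the 1000 lowest values of a library. Counts and library totals were not used here. The fits and the depth estimate were tested on simulated data. Exons, shared bases and opposite-strand genes came from Gencode vM21, and promoters from RefSeq (GRCm38.p6). A promoter window was used only if it started within 200 bases of the start of the listed transcript. Figures were drawn with matplotlib 3.10.9 in Python 3.11.15.

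Members are named by symbol, and values of some genes, 1 member among them, are not reported here, although they stayed in the fits and counts. Values in each library, with the fold change, SE and adjusted p, are given for the 30 members with the largest change in a comparison in which they were called, and for others that were called where they add to a family. Of the partner lists (catenins; spectrin, ankyrin and band 4.1 scaffolds; synaptic PDZ scaffolds; adhesion molecules of myelin; nectins and JAMs; sheddases; polysialyltransferases) at most the 5 called genes with the largest change are named. Members, partner lists and marker lists were chosen with earlier results of these data known. The alternatives were the pseudocount, the minimum FPKM, the trend, median-ratio scaling, the replicate block and leaving out each culture.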

Additional observations from a re-analysis of the deposited data

How the results depend on the processing

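No tested member changed direction in RNA-seq, footprints or RD while called, and none of the medians changed sign, under the 11 alternatives. In RNA-seq, the count of 30 called members was 19 with no minimum FPKM and 5 to 21 when a culture was left out, and the median of 0.69 was 0.42 with no minimum, 0.80 with a minimum of 5 FPKM, 0.87 with median-ratio scaling and 0.57 to 0.78 when a culture was left out. In footprints, the count of 26 was 16 with no minimum, 16 without the trend, 14 with the replicate block (which takes same-numbered cultures as pairs) and 0 to 32 when a culture was left out, and the median of 1.01 was 0.67 with no minimum and 0.76 to 1.04 when a culture was left out. In RD, the count of 0 stayed at 0 except for 1 (Cdh4) without the first oligodendrocyte culture, and the median of 0.28 was 0.12 with median-ratio scaling and 0.20 to 0.41 when a culture was left out. No minimum adds transcripts near 0 to the tests, and leaving out a culture leaves a lone sample that is assumed to vary like the other group. The cause of the other shifts was not tested. Calls over all transcripts moved as well, to 1715 of 10987 in RNA-seq and 1163 of 10987 in footprints with no minimum. In footprints they were 1036 of 8342 without the trend and 1735 of 8342 with the replicate block. Over single members, 100 results in RNA-seq and 115 in footprints lost the threshold under an alternative and 17 and 23 gained it. Apart from the calls named with the results, the replicate block changed no call of a member. Depth limits the members near 1 FPKM most, above all in the second oligodendrocyte culture, and the depth itself is an estimate.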
